A study of Mus musculus with 10 samples.

Results

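The genes described here are 5 pairs of isoforms that act at the same steps of glucose use: the glucose transporters Slc2a1 and Slc2a4, the hexokinases Hk1 and Hk2, the bifunctional phosphofructokinase-2 enzymes Pfkfb1 and Pfkfb2, the enolases Eno1 and Eno3, and the lactate dehydrogenase subunits Ldha and Ldhb. They were taken by gene symbol, 10 of the 20692 genes in the count table, and all 10 were among the 12001 genes with enough reads to be tested. Polyadenylated RNA came from the ventricular apex of mice of the inbred strain FVB/NJ, wild type, 9 weeks of age and all labelled female. In 5 animals the aorta had been banded for 1 week by transverse aortic constriction (TAC), which makes the left ventricle pump against a raised pressure, and the other 5, labelled sham in the design text only, had no constriction. The comparison asks what pressure overload changes in cardiac transcripts, and each animal is taken as 1 replicate, although no animal identifiers are given, so the p-values measure the spread between these samples.

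Glucose enters the cardiomyocyte through GLUT4, the product of Slc2a4, which insulin and contraction move to the cell membrane, and through GLUT1, the product of Slc2a1, which stays at the membrane and predominates in fetal heart and in many other cells. Hexokinase phosphorylates it, fructose 2,6-bisphosphate made by the Pfkfb enzymes drives phosphofructokinase, enolase makes phosphoenolpyruvate, and lactate dehydrogenase interconverts pyruvate and lactate. At several of these steps striated muscle carries its own isoform beside a widely expressed one, so that the ratio of both is often read as a sign of the adult or the fetal type of metabolism.

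Levels are CPM, the reads of a gene scaled to the TMM-adjusted size of its library, a scaling that allows for differences in RNA composition. They are given as mean ± SD over 5 libraries. A fold change is the log2 of TAC over sham and is followed by ± its SE. Adjusted p-values were obtained in edgeR (quasi-likelihood test, Benjamini-Hochberg over all genes tested). Of these genes, 35.8% passed an adjusted p of 0.05, 18.8% higher and 17.0% lower in TAC. The libraries hold 7410967 to 10126574 counts. The library labelled TAC replicate 1 did not match its female label, with 14 counts of Xist against 1042 to 1561 in the other 9 libraries, and results are also given without it. It also held the lowest summed level of 12 cardiomyocyte markers (74775 CPM) and the highest of 9 fibroblast markers (8680 CPM, where the other TAC libraries had 3009 to 3604). Most of that fibroblast sum came from the collagens Col1a1 (2998 CPM), Col3a1 (3054) and Col1a2 (1847). Dcn, Lum and Postn were also highest in this library. Pdgfra (52.0 CPM), Tcf21 (12.6) and Dpt (58.8) lay inside the range of the TAC group. In these bulk samples fewer cells of a type and less RNA per cell cannot be told apart. The sums of the cardiomyocyte markers lay between 101640 and 121822 CPM in sham and between 74775 and 100325 CPM in TAC, with no overlap, and 9 of the 12 were called lower and none higher. Fibroblast markers (7 of 9) and macrophage markers (9 of 10) were called higher. Markers of fat (0.809 to 8.32 CPM summed) and of skeletal muscle (2.20 to 3.90 CPM) were close to 0 in every library, Tnnc2 at 0 in all. None of 5 smooth muscle markers was called, and 4 of 4 tested proliferation markers were called higher. Of 2 tested atrial markers, Nppa was called higher (133 CPM in sham, 741 in TAC) and Myl4 was not called (adjusted p = 0.675 by edgeR). The untested atrial markers Myl7 (0.770 and 0.723 CPM) and Sln (0.111 and 0.0910 CPM) were close to 0 in both groups.

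Of the 10 isoform genes, 6 fell after TAC (Slc2a4, Hk1, Hk2, Pfkfb1, Eno3 and Ldhb), 1 rose (Eno1) and 3 (Slc2a1, Pfkfb2 and Ldha) did not pass. Of all genes tested, 17.0% fell and 18.8% rose. The calls of Hk1, Hk2 and Eno1 did not hold in every set with 1 library left out. The median log2 fold change of the 10 isoform genes was -0.21, beside 0.00 over all genes tested. In 4 of them, Slc2a4, Pfkfb1, Eno3 and Ldhb, every TAC library lay below every sham library, a pattern that 11.6% of the genes tested showed (23.7% did not overlap in either direction). Without TAC replicate 1, 5 fell and 1 rose, where 15.1% and 16.7% of all genes did (31.8% in all). With library totals as the only scaling, 4 fell and 2 rose, where 9.66% and 27.1% of all genes did (36.8% in all). DESeq2 called the same numbers as edgeR, 6 lower and 1 higher, beside 14.6% and 15.5% of all genes (30.1% in all). The mean log2 ratio of the isoforms differed between the groups in 4 of 5 pairs, with no difference called in the hexokinases (exact permutation tests). In the transporter, Pfkfb and lactate dehydrogenase pairs only 1 member was itself called (Slc2a4, Pfkfb1 and Ldhb). The share of other gene pairs whose ratios differ in this way was not computed. Compared as medians in place of means, the 4 ratio differences kept their direction and did not pass (adjusted exact permutation p = 0.0595 for each). Many divisions of groups that do not overlap share the same medians. Beside the higher Hk1/Hk2 value this was therefore the lowest adjusted p the test could give, so it cannot decide on these differences.

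**Figure D1:**
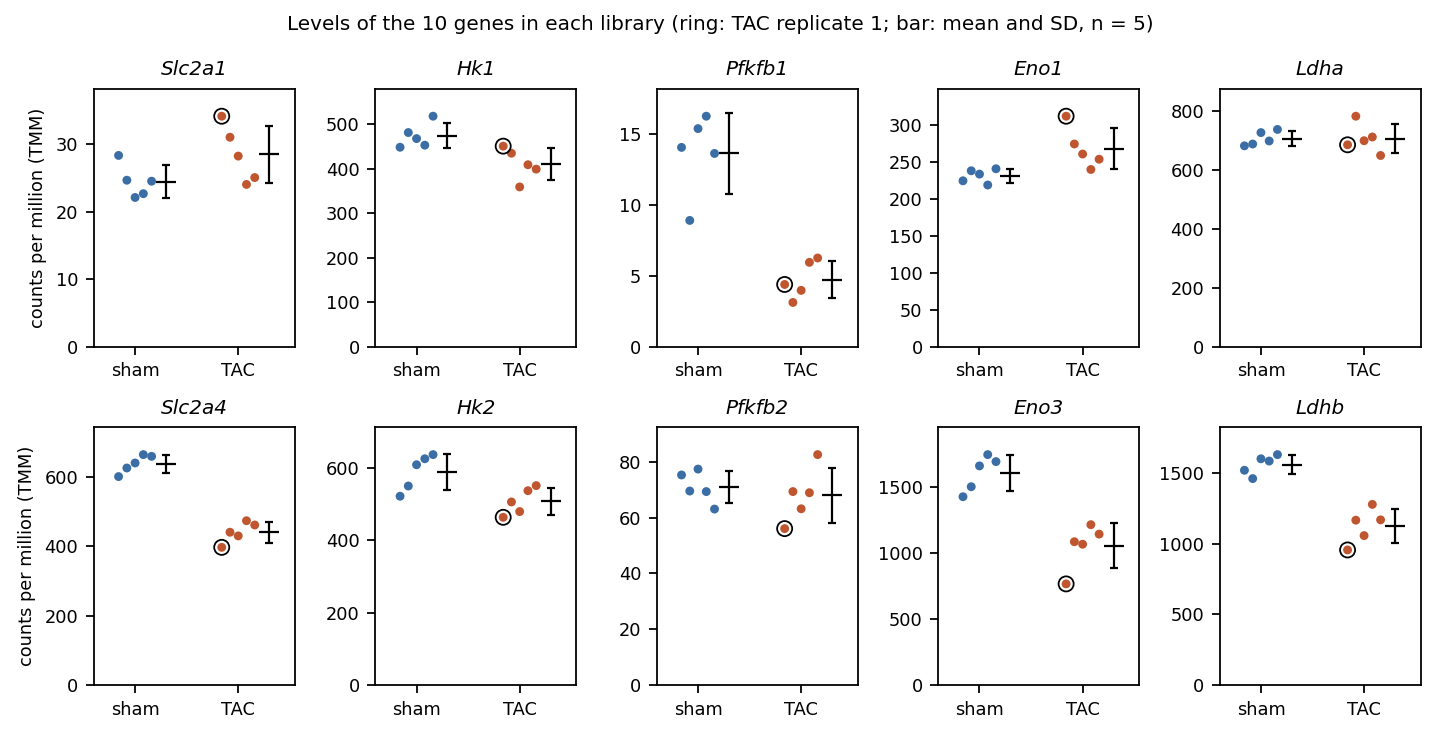
TMM-scaled CPM of each gene in the 5 sham (blue) and 5 TAC (red) libraries, with pairs in columns; black marks are means with SD, and the ring is the library labelled TAC replicate 1. Slc2a4, Pfkfb1, Eno3 and Ldhb are lower in all 5 TAC libraries than in any sham library, while Slc2a1, Hk1, Hk2, Pfkfb2, Eno1 and Ldha overlap.

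Slc2a4 (ENSMUSG00000018566, chromosome 11 from 69942539 to 69948188 in GRCm38), the insulin-responsive transporter, gave 600, 625, 639, 663 and 658 CPM in the sham libraries and 397, 440, 430, 473 and 461 CPM in the TAC libraries. The highest TAC library lay well below the lowest sham library. It fell from 637 ± 25.8 to 440 ± 29.7 CPM, to 69.1% of its sham level (log2 fold change -0.53 ± 0.06, adjusted p = 5.16e-05 by edgeR). Slc2a1 (ENSMUSG00000028645, chromosome 4), the transporter of the fetal heart and of endothelium, gave 28.3, 24.6, 22.1, 22.6 and 24.5 CPM in sham and 34.1, 31.0, 28.2, 24.0 and 25.0 CPM in TAC. Of the TAC libraries, 2 lay above the highest sham library and the others within or near the sham range. Its value of 0.21 ± 0.10 did not pass (adjusted p = 0.121 by edgeR), and it did pass when library totals replaced the TMM factors (0.32, adjusted p = 0.0285 by edgeR). Without TAC replicate 1 the value was 0.14 ± 0.09 (adjusted p = 0.287 by edgeR).

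Within each library, Slc2a1 held 0.0471, 0.0394, 0.0345, 0.0341 and 0.0372 reads per read of Slc2a4 in sham and 0.0860, 0.0704, 0.0656, 0.0507 and 0.0543 in TAC. Every TAC library stood above every sham library, the nearest being sham replicate 1 and TAC replicate 4. The log2 ratio was higher in TAC by 0.75 ± 0.16, a 1.68-fold shift (exact two-sided permutation test over all 252 divisions of the libraries, p = 0.00794, the smallest this design can give; 0.00992 adjusted over the 5 ratios). Per kilobase of transcript, Slc2a1 stood at 0.0298 ± 0.0041 of the Slc2a4 level in sham and at 0.0506 ± 0.0109 in TAC, so Slc2a4 remained the far larger message in both groups. The summed level of endothelial markers (1396 to 1603 CPM in sham, 1462 to 1804 in TAC) and of erythroid markers (276 to 1697 and 1004 to 2147) overlapped between groups. The endothelial overlap came from TAC replicate 1 (1462 CPM), as the other TAC libraries, from 1656 to 1804 CPM, all lay above the highest sham library, and 3 of 10 endothelial markers were called higher and none lower. The part of these cells in the Slc2a1 values was not tested.

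**Figure D2:**
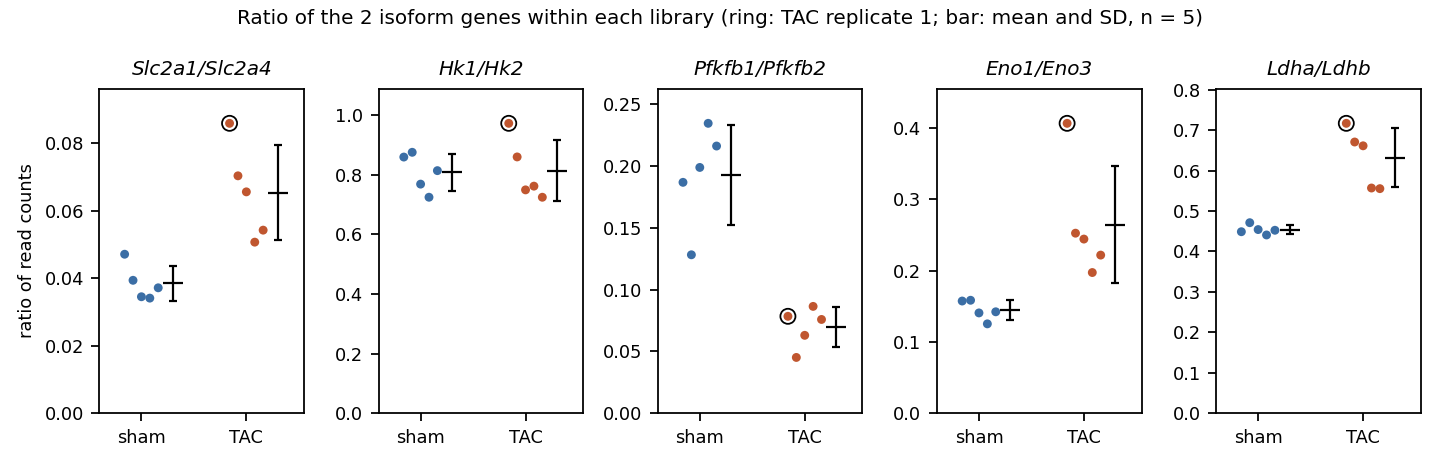
Ratio of raw read counts of the first to the second gene of each pair within each library, for 5 sham (blue) and 5 TAC (red) hearts; black marks are means with SD, and the ring is the library labelled TAC replicate 1. The groups separate in all pairs except Hk1/Hk2, downward for Pfkfb1/Pfkfb2 and upward for Slc2a1/Slc2a4, Eno1/Eno3 and Ldha/Ldhb.

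The hexokinases fell slightly and together. Hk1 (ENSMUSG00000037012, chromosome 10), the widely expressed isoform, had 448, 481, 467, 452 and 517 CPM in sham and 450, 434, 359, 409 and 399 CPM in TAC. Hk2 (ENSMUSG00000000628, chromosome 6), the isoform of insulin-sensitive muscle, had 522, 550, 609, 625 and 637 CPM in sham and 463, 506, 479, 537 and 551 CPM in TAC. Both groups overlapped in either gene, with 4 TAC libraries below the lowest sham library for Hk1 and 3 for Hk2. Hk1 fell to 86.7% of sham (-0.21 ± 0.07, edgeR adjusted p = 0.0294) and Hk2 to 86.2% (-0.21 ± 0.07, edgeR adjusted p = 0.0315). With library totals neither was called, at -0.10 (adjusted p = 0.266 by edgeR) and -0.11 (adjusted p = 0.234 by edgeR), and leaving out 1 library ended each call in 5 of 10 cases. For Hk1 these were the cases without sham replicate 2 or 5 or TAC replicate 3, 4 or 5, and for Hk2 those without sham replicate 3, 4 or 5 or TAC replicate 1 or 3.

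The Hk1/Hk2 ratio was 0.808 ± 0.063 in sham and 0.813 ± 0.103 in TAC, and the log2 ratios differed by 0.0041 ± 0.093 (exact two-sided permutation test, p = 0.976). The highest ratio of all, 0.972, was that of TAC replicate 1, and the other TAC libraries, from 0.724 to 0.859, covered much the same range as sham, 0.724 to 0.874. Which hexokinase is more abundant depended on the length used: with the principal transcripts Hk1 stood at 1.16 ± 0.09 of Hk2 per kilobase in sham, and with the union of all annotated exons at 0.565.

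Of the 5 ratios, that of the Pfkfb pair differed most on the log2 scale. Both enzymes make and break down fructose 2,6-bisphosphate; Pfkfb1 is known as the isoform of liver and skeletal muscle and Pfkfb2 as that of heart, where insulin and adrenergic signals activate it by phosphorylation. Pfkfb1 (ENSMUSG00000025271, chromosome X) gave 14.0, 8.90, 15.4, 16.2 and 13.6 CPM in sham and 4.39, 3.13, 3.98, 5.95 and 6.26 CPM in TAC. No TAC library reached the lowest sham library, and TAC replicate 1, the library that did not match its sex label, lay inside the range of the other TAC libraries for this X-linked gene. It fell to 35.2% of its sham level (log2 fold change -1.505 ± 0.195, adjusted p = 0.000136 by edgeR; -1.47 ± 0.21 without TAC replicate 1). The gene is weakly expressed, with 73 to 142 reads in the sham libraries and 23 to 57 in the TAC libraries, the fewest of the 10 genes.

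Pfkfb2 (ENSMUSG00000026409, chromosome 1) had 75.3, 69.5, 77.4, 69.3 and 63.1 CPM in sham and 56.1, 69.3, 63.2, 68.9 and 82.5 CPM in TAC. The groups overlapped, and the value of -0.06 ± 0.09 did not pass (adjusted p = 0.654 by edgeR) and was 0.045 with library totals. Of its exon bases, 19.5% are shared in the GRCm38 annotation with Yod1 and a predicted gene, and as the libraries do not keep the strand those reads cannot be assigned. Reads of Pfkfb1 per read of Pfkfb2 went from 0.193 ± 0.040 to 0.0697 ± 0.0161, with sham libraries from 0.128 to 0.234 and TAC libraries from 0.0451 to 0.0864. The log2 ratio changed by -1.47 ± 0.22 (exact two-sided permutation test, p = 0.00794, 0.00992 adjusted over the 5 ratios), the 1 pair in which the numerator lost ground. Per kilobase, Pfkfb1 stood at 0.490 ± 0.103 of Pfkfb2 in sham and at 0.177 ± 0.041 in TAC.

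In the enolase pair the genes moved in opposite directions. Eno3 (ENSMUSG00000060600, chromosome 11), the muscle enolase, gave 1428, 1504, 1661, 1747 and 1694 CPM in sham and 768, 1087, 1068, 1216 and 1145 CPM in TAC. The groups did not overlap, and TAC replicate 1 was the lowest. Eno3 fell to 65.8% of sham (log2 fold change -0.60 ± 0.11, adjusted p = 0.000937 by edgeR; -0.51 ± 0.07 without that library). Eno1 (ENSMUSG00000063524, chromosome 4), the widely expressed enolase, had 225, 238, 234, 219 and 241 CPM in sham and 312, 274, 261, 240 and 254 CPM in TAC. Here 4 TAC libraries lay above the highest sham library and TAC replicate 4 just under it. Eno1 rose 1.16-fold (0.21 ± 0.07 on the log2 scale, edgeR adjusted p = 0.0265; 0.15 ± 0.05, adjusted p = 0.0449 by edgeR, without TAC replicate 1), and the call ended without sham replicate 1, sham replicate 4 or TAC replicate 2 (adjusted p from 0.0537 to 0.0722 by edgeR).

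The Eno1/Eno3 ratio was 0.157, 0.158, 0.141, 0.125 and 0.142 in sham and 0.406, 0.252, 0.244, 0.197 and 0.222 in TAC. TAC replicate 1 stood far above the others, and without it the mean in TAC was 0.229 ± 0.025 against 0.145 ± 0.014 in sham. The log2 ratio was higher by 0.83 ± 0.19 with all libraries (exact two-sided permutation test, p = 0.00794, 0.00992 adjusted over the 5 ratios) and by 0.66 without that library. Per kilobase, Eno1 held 0.112 ± 0.011 of the Eno3 level in sham and 0.204 ± 0.063 in TAC. Eno1 has close copies elsewhere: 4 other genes match its transcripts at 95% identity or more over at least 100 bases, among them the coding copy Eno1b (99.5% over 1736 bases), and none of them was analysed here. The aligner versions named for the sham and TAC libraries differ, so a difference in how reads of such copies were placed and an effect of TAC on Eno1 cannot be told apart.

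Lactate dehydrogenase is a tetramer of A subunits, typical of glycolytic tissue, and B subunits, typical of heart. Ldhb (ENSMUSG00000030246, chromosome 6) gave 1517, 1459, 1598, 1582 and 1628 CPM in sham and 955, 1165, 1056, 1277 and 1167 CPM in TAC, again with no overlap. It fell to 72.2% of sham (log2 fold change -0.47 ± 0.07, adjusted p = 0.000477 by edgeR). Ldha (ENSMUSG00000063229, chromosome 7) had 681, 687, 726, 697 and 736 CPM in sham and 684, 781, 698, 711 and 648 CPM in TAC. These groups overlapped almost wholly, and the value of -0.0020 ± 0.058 did not pass (adjusted p = 0.985 by edgeR); with library totals it was 0.10 (adjusted p = 0.138 by edgeR). Ldha has 8 near copies by the same measure, all processed pseudogenes, of which the 1 measured, Ldha-ps2, held 22 reads in all libraries beside 60455 of Ldha.

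Ldha reads per read of Ldhb were 0.449, 0.471, 0.454, 0.441 and 0.452 in sham and 0.717, 0.670, 0.661, 0.557 and 0.555 in TAC. The sham libraries lay close together, and all TAC libraries lay above them. The log2 ratio rose by 0.47 ± 0.08 (1.39-fold; exact two-sided permutation test, p = 0.00794, 0.00992 adjusted over the 5 ratios). Per kilobase, Ldha stood at 0.335 ± 0.008 of Ldhb in sham and at 0.467 ± 0.054 in TAC, so that Ldhb stayed the more abundant message. The shift came with a fall of Ldhb and no called change of Ldha.

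Within a pair the coding sequences are 69.8% to 76.7% identical, with longest identical runs of 18 to 27 bases. Ldhb has 1 near copy, a processed pseudogene (98.0% over 1002 bases) not analysed here, and Slc2a4, Hk2, Pfkfb1 and Eno3 have none by the measure used for Eno1. For Ldha and Ldhb, as for Eno1, a difference in how reads of copies were placed and an effect of TAC cannot be told apart. The near copies of Slc2a1 and Hk1 are antisense genes that overlap them.

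Summed per kilobase of transcript, 4 of the 5 pairs were lower in all TAC libraries than in any sham library. Of single genes tested, 11.6% showed this pattern, and the sums were made with TMM scaling only. In sham, most of the transporter, enolase and lactate dehydrogenase sums came from Slc2a4 (253 CPM per kilobase), Eno3 (1027) and Ldhb (1194), already described above. The transporters went from 260 ± 9.65 to 183 ± 10.6 CPM per kilobase, the enolases from 1141 ± 86.1 to 808 ± 96.6, the lactate dehydrogenases from 1593 ± 64.4 to 1261 ± 104 and the hexokinases from 230 ± 14.0 to 199 ± 10.4. The Pfkfb pair went from 23.9 ± 2.30 to 18.1 ± 2.70, with overlap. In the transporters, enolases and lactate dehydrogenases, the level lost from the larger isoform was thus not matched by a gain of the smaller one.

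**Figure D3:**
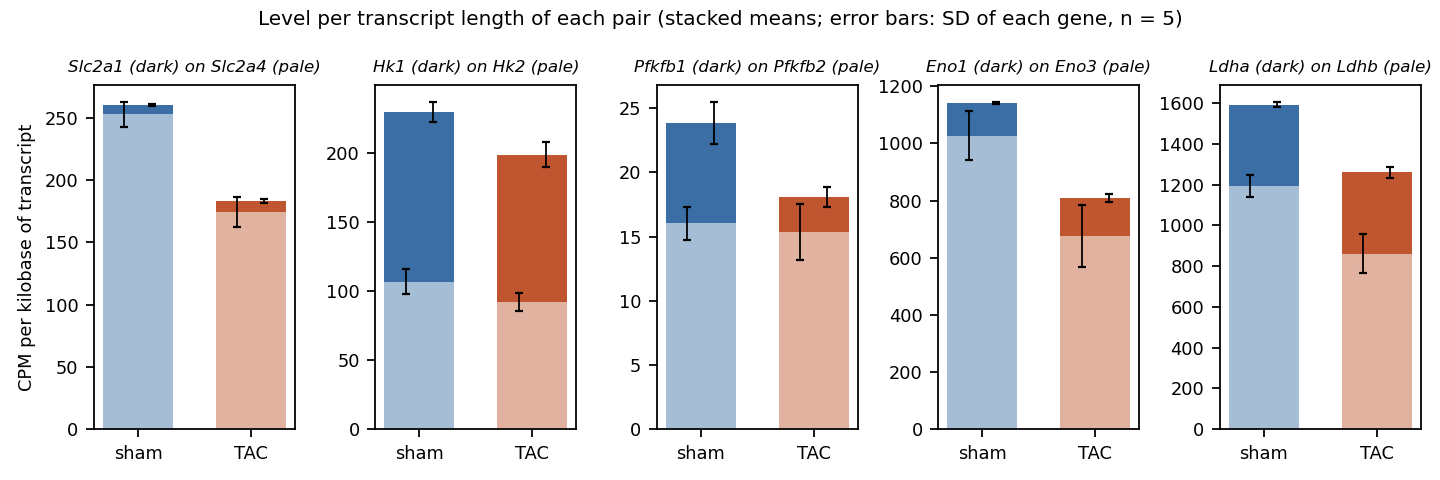
Mean level per kilobase of principal transcript for the second gene of each pair (pale) with the first stacked on it (dark), in sham (blue) and TAC (red); error bars are the SD of each gene over 5 libraries. The stacks of Slc2a1 with Slc2a4 reach 260 in sham and 183 in TAC, the pale part (Slc2a4) going from 253 to 174 while the dark part (Slc2a1) went from 7.49 to 8.73.

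Since cardiomyocyte markers as a whole were lower in TAC (80.3% of their sham mean), each gene was also set against the summed counts of those 12 markers in the same library. On this scale Pfkfb1 (-1.22 ± 0.23), Eno3 (-0.30 ± 0.07) and Ldhb (-0.15 ± 0.03) still lay lower in every TAC library than in any sham library. Slc2a4 was lower by less and overlapped (-0.21 ± 0.06, 86.3% of sham). Eno1 (0.53 ± 0.14) and Ldha (0.32 ± 0.08) were higher in every TAC library, and the hexokinases turned from lower to higher values (0.11 ± 0.12 for Hk1 and 0.11 ± 0.07 for Hk2) with overlap. The marker sum was lower in TAC, so this scale raises every gene alike, and shares over all genes are not given on it. With TMM scaling, Ldha had -0.0020 ± 0.058. Myh6, the marker with the highest level, went from 42830 to 31778 CPM on average, while Ttn, Mybpc3 and Actc1 were not called. This scale was added after the values were seen. How far a change in cell composition takes part in these values was not tested.

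**Figure D4:**
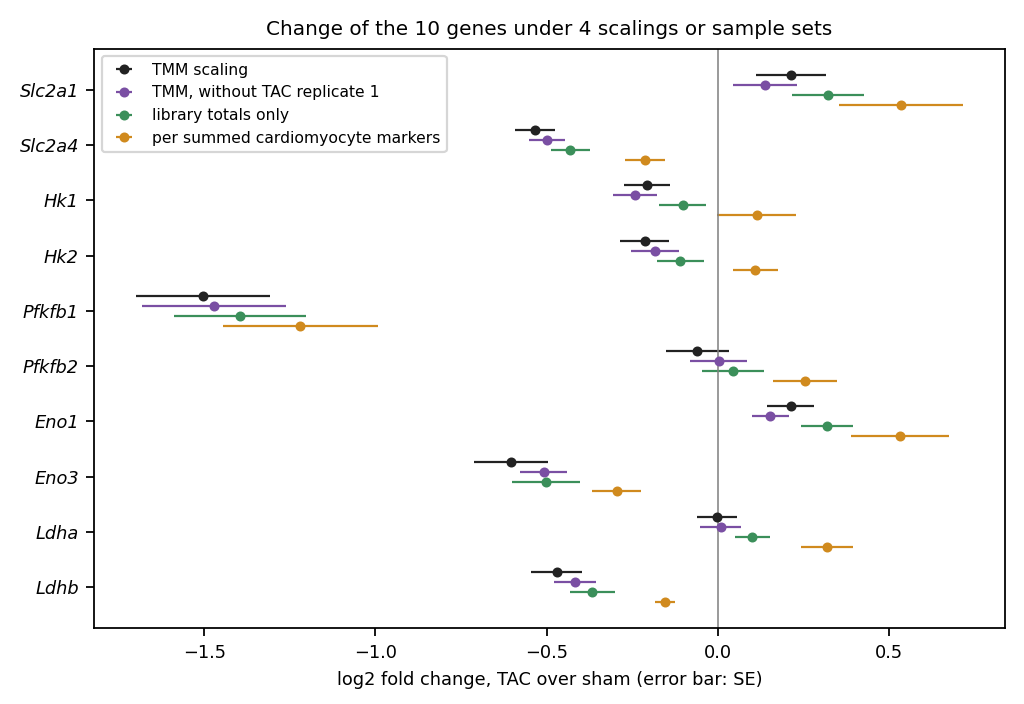
Log2 fold change of TAC over sham (horizontal axis, error bars are SE) of the 10 genes with TMM scaling, without the library labelled TAC replicate 1, with library totals only and relative to summed cardiomyocyte markers. Pfkfb1, Eno3, Ldhb and Slc2a4 stay below 0 and Slc2a1 and Eno1 above 0 in all 4, while Hk1, Hk2, Pfkfb2 and Ldha change sign.

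Promoters of 3 of the genes that fell without overlap are shown so that their start regions can be compared. They are the 250 bases before the RefSeq start (GRCm38.p6) nearest to the principal transcript, read 5′ to 3′ on the gene's strand: chrX:150589666-150589915 on the plus strand for Pfkfb1, chr11:70656926-70657175 on the plus strand for Eno3 and chr6:142507958-142508207 on the minus strand for Ldhb. Capitals mark AGGTCA, the half-site of nuclear receptors such as ERR and PPAR, TATAAA, and ACGTG or GCGTG, core forms of the hypoxia response element, each searched on both strands with overlapping matches counted; no marked matches overlap in these windows. ACGTG is in 16.6% and GCGTG in 28.2% of all windows.
Pfkfb1: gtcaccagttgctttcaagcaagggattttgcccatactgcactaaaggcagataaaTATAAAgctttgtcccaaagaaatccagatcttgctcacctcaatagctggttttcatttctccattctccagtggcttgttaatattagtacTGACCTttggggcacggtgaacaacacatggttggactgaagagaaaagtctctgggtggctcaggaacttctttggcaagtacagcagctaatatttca
Eno3: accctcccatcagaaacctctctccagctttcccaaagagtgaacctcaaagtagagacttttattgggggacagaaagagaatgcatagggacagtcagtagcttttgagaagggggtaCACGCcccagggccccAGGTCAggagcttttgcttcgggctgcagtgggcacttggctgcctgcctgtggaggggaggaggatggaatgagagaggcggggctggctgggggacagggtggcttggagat
Ldhb: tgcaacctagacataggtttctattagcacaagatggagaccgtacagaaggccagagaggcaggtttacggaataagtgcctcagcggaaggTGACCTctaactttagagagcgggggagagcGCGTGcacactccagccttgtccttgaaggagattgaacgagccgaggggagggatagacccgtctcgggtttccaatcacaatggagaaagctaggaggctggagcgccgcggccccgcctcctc
Each of these windows holds 1 AGGTCA, which 14.0% of 32851 promoter windows of this length hold. Eno1, which rose, has 1 as well in its nearest window, and the windows of Slc2a1, Hk1, Hk2, Pfkfb2 and Ldha have none. The RefSeq start of that Eno1 window lies 244 bases from the start of the principal transcript. Another Eno1 start lies almost as near, at 245 bases, and its window has none. TATAAA is in the Pfkfb1 window alone among the 9 genes with a window (12.4% of all windows). The base composition differs between them: the Pfkfb1 window is 42.8% G and C with 1 CG dinucleotide, that of Eno3 57.2% with 3 and that of Ldhb 56.4% with 14, beside medians of 52.4% and 6 over all windows. Other RefSeq starts of Pfkfb1 lie 1678 bases or more from the principal start, and their windows hold no AGGTCA and no TATAAA. The window at 1678 bases is 61.6% G and C with 17 CG dinucleotides. Matches of this kind are a description of the letters only, and no binding was measured.

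Other genes of the pathway were taken from lists and are given by counts beside the shares of all genes called (18.8% higher and 17.0% lower). Of 9 tested further isoforms of the same steps, 2 fell and 3 rose (median log2 fold change 0.33). Slc2a12, another insulin-responsive transporter, fell from 12.6 ± 0.76 to 6.78 ± 1.59 CPM (-0.88 ± 0.14), and Ldhd, a D-lactate dehydrogenase, had a value of -0.76 ± 0.09, although 42.2% of its exon bases are shared with Znrf1. Among those that rose were Pfkfb3 (0.46 ± 0.15) and Hk3 (0.62 ± 0.23). Pfkfb3, the inducible isoform, went from 11.0 ± 2.49 to 15.04 ± 1.79 CPM, where Pfkfb1 fell. Hk3, an isoform of blood cells at 2.22 CPM in sham, was no longer called without TAC replicate 1 (adjusted p = 0.128 by edgeR), the library with the highest macrophage markers (667 CPM, with 400.2 to 426 elsewhere in TAC), whose part in it was not tested.

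Of 12 other tested glycolytic genes, the muscle and widely expressed forms of phosphofructokinase and phosphoglycerate mutase included, 1 fell and none rose (median -0.05; 0.05 with library totals). The 1 was Pfkm, the muscle phosphofructokinase, from 1123 ± 98.2 to 820 ± 107 CPM (-0.45 ± 0.09, adjusted p = 0.00214 by edgeR). DESeq2 called 5 lower. Gapdh (-0.01 ± 0.06), Pgk1 (0.04 ± 0.05) and Aldoa (-0.13 ± 0.06), the dehydrogenase, kinase and aldolase of the common path, did not pass. Of 4 lactate transport genes, Slc16a3, the exporter MCT4, rose from 6.82 ± 1.23 to 12.7 ± 4.27 CPM (0.88 ± 0.22), while Bsg, the chaperone of these transporters (-0.39 ± 0.06), and Slc16a1, MCT1 (-0.17 ± 0.06), fell. Slc16a1 was not called without TAC replicate 1 (adjusted p = 0.0644 by edgeR) or with library totals (adjusted p = 0.353 by edgeR).

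Of 21 tested genes that place GLUT4 in the membrane or carry the insulin signal, 7 fell and 1 rose (median -0.10; 5 and 3, median 0.01, with library totals). Tbc1d4, the Rab regulator through which insulin releases GLUT4 vesicles, went from 111 ± 13.5 to 71.5 ± 7.43 CPM (-0.63 ± 0.09), and its relative Tbc1d1 was the 1 that rose (0.44 ± 0.08). Akt2, the Akt kinase of this signal, fell by 0.45 on the log2 scale with no overlap, and Akt1 did not pass (adjusted p = 0.998 by edgeR). Pik3r1, a phosphoinositide 3-kinase subunit, and Vamp2, a vesicle fusion protein, had values of -0.73 ± 0.11 and -0.31 ± 0.05.

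Among 20 tested glycogen genes 7 fell and 1 rose (median -0.23; 6 and 2, median -0.13, with library totals). Phkg1, the catalytic subunit of muscle phosphorylase kinase, went from 25.2 ± 2.83 to 11.5 ± 2.12 CPM (-1.13 ± 0.13, adjusted p = 5.25e-05 by edgeR). Gys1, glycogen synthase, and Gaa, the lysosomal glucosidase, were at 68.3% and 79.5% of sham. The phosphoglucomutase listed as Pgm1 (ENSMUSG00000029171) rose from 6.72 ± 0.861 to 10.0 ± 0.643 CPM (0.58 ± 0.11). The far more abundant one, listed as Pgm2 (ENSMUSG00000025791), fell from 203 ± 15.1 to 163 ± 7.05 CPM (-0.31 ± 0.06) with no overlap. Of 19 genes of side branches 5 fell and 1 rose (median 0.02). Those that fell were Sord and Akr1b3, both enzymes of the polyol pathway (-0.61 ± 0.07 and -0.45 ± 0.08), Gpd1l, Gpd1 and Taldo1, and the 1 that rose was Pgm3 (0.43 ± 0.14), which was not called without TAC replicate 1 (adjusted p = 0.0667 by edgeR) and shares 28.3% of its exon bases with Dop1a. With library totals 6 of this list rose and 4 fell (median 0.13).

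Of 21 tested regulators of these genes, 10 fell and 4 rose (median -0.20; 7 and 7, median -0.09, with library totals). Egln1, a prolyl hydroxylase that marks HIF proteins for degradation, went from 447 ± 18.9 to 308 ± 24.4 CPM (-0.54 ± 0.06). Hif1a, whose protein is its substrate, rose by 0.33 ± 0.07 from 27.3 ± 1.86 CPM. Epas1, which encodes another HIF protein, fell from 424 ± 20.2 CPM (-0.30 ± 0.08). Ppargc1a (-0.84 ± 0.14) and Esrra (-0.43 ± 0.06), a coactivator and a nuclear receptor of oxidative metabolism, fell. Myc rose by 1.505 ± 0.313 from 5.33 ± 2.17 CPM, and Trp53 and Arrdc4 rose by 0.59 ± 0.08 and 0.40 ± 0.13.

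**Figure D5:**
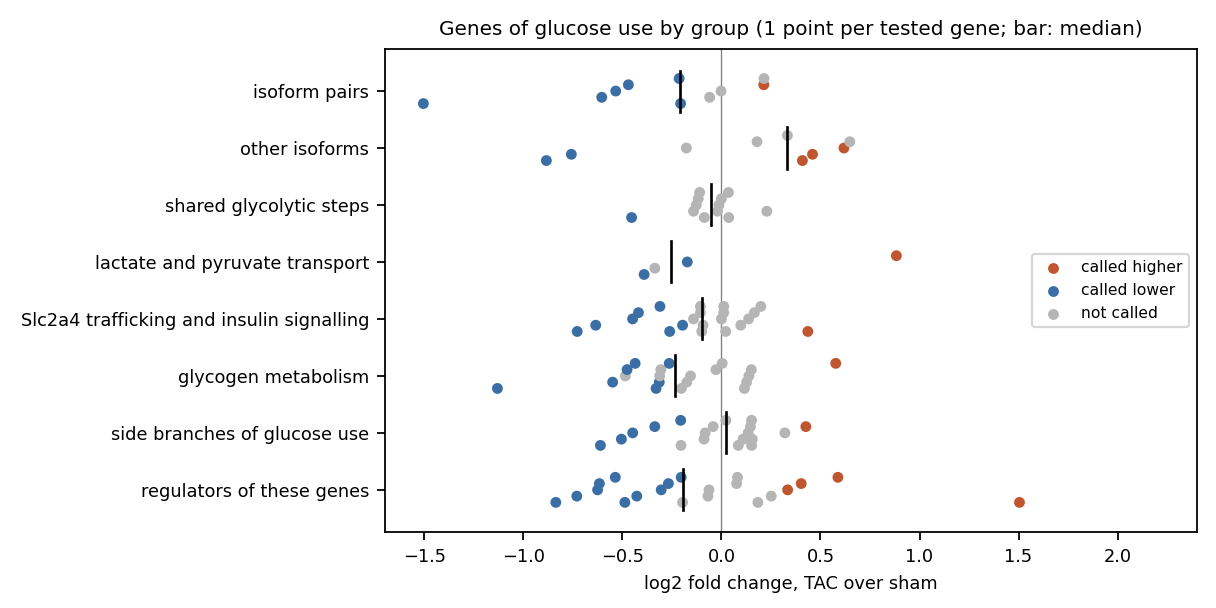
Log2 fold change of TAC over sham for each tested gene of the 8 lists, coloured by whether it was called higher, lower or not; black bars are list medians. The isoform pairs have 6 blue points and 1 red, and the shared glycolytic steps 1 blue point, Pfkm, beside 11 that were not called.

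By the likeness of profiles, measured as the root mean square difference of log2 CPM centred on the sham mean over the 10 libraries among 11283 named genes, Slc2a4 was nearest to Crip2 (0.0447) and Echs1 (0.0479), and Ldhb to Adk (0.0276) and Atp5a1 (0.0305). Eno3 was nearest to Car14 (0.0536) and Mccc2 (0.0561), Eno1 to Arpc3 (0.0547) and Pgd (0.0553), Hk1 to Ctsl (0.0471) and Tatdn2 (0.0628), and Hk2 to Lsmd1 (0.0481) and Psma1 (0.0502). Pfkfb1 had no such close neighbour, its nearest being Acsm5 (0.276) and Lrrc52 (0.370). All 10 libraries share these profiles with the group difference, so the likeness describes them and tests nothing.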

How the data were processed

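The deposited table holds read counts per Ensembl gene, not normalized, for 10 libraries. Per the submitters' processing notes, TopHat2 2.0.10, Bowtie2, HTSeq and mm10 belong to the sham samples, whereas TopHat 1.3.0, Bowtie, HTSeq and both mm9 and mm10 belong to the TAC samples, and per the file headers the gene IDs are those of GRCm37. This difference in processing cannot be told apart from the effect of TAC. Per the labels' protocols the libraries are single-end and do not keep the strand. A row of column totals was left out.

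Counts were tested with edgeR 4.0.16 (R 4.3.3): TMM factors, filterByExpr defaults (minimum count 10), quasi-likelihood F test, group as the only term, Benjamini-Hochberg over 12001 genes, threshold 0.05. The script was tested on simulated data. The 5 isoform ratios use raw counts per library and exact permutation tests. GENCODE M21 (GRCm38) gave transcript lengths, and blastn 2.17.0 the near copies. No 2 libraries of a group were repeats of each other (chi-square of their counts 2.66 to 25.1 per gene over 20 pairs).

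The members, the 7 other pathway lists and the 10 cell type marker lists were chosen with earlier results of these data known. All 10 members are named; of each other list up to 4 called genes with the smallest adjusted p, and those that make up a count of 5 or fewer; and for each called member the 2 genes with the most alike profile. Some genes that this rule names are not reported here. Gapdh, Pgk1, Aldoa, Akt1, Pgm2 and Epas1 were added after their values were seen. Alternatives were DESeq2 1.42.0, limma-voom (limma 3.58.1), RLE factors, library totals, no filter, a replicate block and each library left out; scaling to cardiomyocyte markers was added after the data were seen.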

Additional observations from a re-analysis of the deposited data

Results flagged for a closer look

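The Eno1/Eno3 ratio of the library labelled TAC replicate 1 was 0.406, while the other TAC libraries lay between 0.197 and 0.252, a gap of 0.736 of the range of the group. It was the only value to stand apart in this way among 30 groups of 5 libraries examined (10 genes and 5 ratios in sham and in TAC), and chance marks about 1 group in 20. This library also had the lowest Eno3 level (768 CPM), the highest Eno1 level (312 CPM) and the lowest sum of cardiomyocyte markers (74775 CPM). Its sum of fibroblast markers was the highest (8680 CPM, mostly collagens), and the part of any of these in the ratio was not tested.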

How the results depend on the processing

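Scaling by library totals alone raised the median over all genes tested from 0.00 to 0.11 (log2), and 3257 were called higher and 1159 lower, where TMM gave 2251 and 2040. Under this scaling Slc2a1 was called (0.32), Hk1 (-0.10) and Hk2 (-0.11) were not, and the uncalled values of Pfkfb2 (0.045) and Ldha (0.10) changed sign; the cause was not tested beyond that shift. Against summed cardiomyocyte markers, Slc2a1 (0.54), Pfkfb2 (0.25) and Ldha (0.32) passed an unadjusted exact permutation test as higher (p = 0.0238, 0.0159 and 0.00794), and Hk1 (0.11) and Hk2 (0.11) were positive and did not (p = 0.413 and 0.135). The lower marker sum in TAC raises every gene on that scale, so these tests cannot separate a rise of a gene from the fall of the markers. DESeq2, limma-voom, RLE factors and no filter changed no call of the 10 genes. As differences of medians the log2 ratios were 0.82 (Slc2a1/Slc2a4), -1.39 (Pfkfb1/Pfkfb2), 0.78 (Eno1/Eno3) and 0.55 (Ldha/Ldhb), each with an adjusted exact permutation p of 0.0595, and -0.095 for Hk1/Hk2. For groups that do not overlap, 0.0595 is the lowest adjusted value this test could give beside the higher Hk1/Hk2 value. Adding 0.5 to counts or using shares changed no ratio call. With 1 library left out in turn, log2 fold changes ranged from -0.24 to -0.16 for Hk1, -0.26 to -0.18 for Hk2, 0.15 to 0.25 for Eno1, 0.14 to 0.27 for Slc2a1 (lowest without TAC replicate 1), -0.14 to 0.0028 for Pfkfb2 and -0.046 to 0.027 for Ldha, and the Hk1/Hk2 log2 ratio from -0.062 to 0.044; Slc2a4, Pfkfb1, Eno3, Ldhb and the other 4 ratios kept their calls in all 10 sets. The replicate numbers do not pair the libraries (correlations of same-numbered deviations from -0.092 to 0.22, and 1 of 5 sham libraries nearest its own number). With the replicate block edgeR called 2113 genes higher and 1924 lower and changed no call of the 10 genes, and the paired log2 ratios were 0.75, -1.47, 0.83 and 0.47 for the same 4 pairs, where the exact sign-flip test over 32 flips cannot go below 0.0625 (0.0781 adjusted). Depth limits Pfkfb1 most, with as few as 23 reads in a library.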
